A study of Mus musculus with 16 samples.

Results

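The microRNAs described here come from the cluster of hairpin genes that runs from miR-379 to miR-410 on mouse chromosome 12 and overlaps the long non-coding RNA gene Mirg. Members were chosen by name alone, as every entry of the count table whose number belongs to a cluster hairpin, whichever arm of the hairpin it names. That rule gave 66 of the 1978 mature microRNA names in the table, from 33 hairpins. Of these 66 names, 51 had enough counts to be tested, out of 483 tested names in all.

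The RNA came from perinatal mouse forebrain neurons grown in primary culture, and every culture had been transduced with a lentiviral vector. Empty_Vector cultures received the vector without a hairpin, shRNA cultures a vector with a small hairpin RNA, shRNA_2bp cultures that hairpin with 2 point mutations and shRNA_5bp cultures the hairpin with 5 point mutations. Each of the 4 groups had 4 libraries, and no group was left untransduced. The series asks whether small hairpin RNAs disturb neuronal microRNAs independently of their target. The labels give neither the target, the hairpin sequence, the strain nor the age, and they do not say whether replicates were separate cultures or animals, so p-values measure the spread between these libraries, which may be technical.

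Library totals ran from 2760894 to 11139163 counts in Empty_Vector and from 5304461 to 8061785 in shRNA. They were lower in shRNA_2bp, at 1177068 to 2097782, and in shRNA_5bp, at 831859 to 2496036. Levels are counts per 1 M counts of the library total (CPM) after scaling by the trimmed mean of M values. Summed levels of 7 neuron-enriched microRNAs, used to check the label, were 501744 to 535687 CPM in Empty_Vector and at least 307156 CPM in every hairpin library. Markers of other cells were far lower: 4 astroglial microRNAs summed to 1841 to 2060 CPM in Empty_Vector, and 6 microglial microRNAs, 2 of them at 0, to 51.1 to 61.4 CPM. The astroglial microRNAs were miR-21a-5p, miR-22-3p, miR-22-5p and miR-449a-5p, and in every group their sum was mostly miR-21a-5p and miR-22-3p.

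A microRNA is cut from a hairpin in a longer transcript, first in the nucleus by the Drosha and DGCR8 complex and then in the cytoplasm by Dicer, and 1 strand of the resulting duplex is loaded into an Argonaute protein. Bases 2 to 8 of the loaded strand, the seed, pair with target messenger RNAs and lower their translation and stability. The cluster lies in the imprinted Dlk1-Dio3 region, its hairpins are made from the maternal chromosome, and in neurons its transcription is known to respond to activity through the factor Mef2. Several members are known from work on dendrites and synapses. miR-134 limits dendritic spine growth through the kinase Limk1, miR-485 acts on the synaptic vesicle protein SV2A, and miR-134, miR-381 and miR-329 have been described as needed for activity-driven dendrite growth.

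Of the 33 hairpins, 31 had an entry in RefSeq on GRCm38.p6, and they spanned 34.7 kb at chr12:109709060-109743795. The plus strand carried 30 of them and the minus strand 1, Mir299b, which lies opposite Mir299a. In the GENCODE annotation of the same build, 19 hairpins upstream of Mirg lay within no gene annotated on their strand, microRNA genes not counted. A further 8 overlapped an exon of Mirg (chr12:109729764-109749460) and 4 lay in its introns. RefSeq gave a single mature sequence for 63 of the 66 names. Those of miR-487b-3p, miR-539-3p and miR-485-5p are not printed.

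The mature sequences below are those of the 8 most abundant members and of 5 further members that the comparisons turn on, with the seed in capitals.
miR-381-3p: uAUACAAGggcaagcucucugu
miR-543-3p: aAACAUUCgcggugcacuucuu
miR-541-5p: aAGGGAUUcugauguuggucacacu
miR-409-3p: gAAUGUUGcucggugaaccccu
miR-379-5p: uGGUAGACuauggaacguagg
miR-382-5p: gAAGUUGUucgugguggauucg
miR-323-3p: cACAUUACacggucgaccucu
miR-411-5p: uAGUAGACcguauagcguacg
miR-300-3p: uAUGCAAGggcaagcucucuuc
miR-495-3p: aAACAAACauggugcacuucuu
miR-666-5p: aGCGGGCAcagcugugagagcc
miR-134-5p: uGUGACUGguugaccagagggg
miR-410-3p: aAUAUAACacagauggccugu
None of these 13 share a seed with each other. Across all members, miR-379-5p and miR-1193-5p share the seed GGUAGAC, miR-379-3p and miR-411-3p share AUGUAAC, miR-299a-3p and miR-299b-3p share AUGUGGG, and miR-494-5p and miR-410-5p share GGUUGUC.

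Several members resemble each other in sequence. miR-299a and miR-299b share a run of 21 bases in the 5p arm and 18 in the 3p arm, and miR-379-3p and miR-758-3p are identical at 16 of 19 positions. The sequences of 3 further pairs are repeated here with the longest shared run in capitals, because the values of each pair are compared further on.
miR-300-3p: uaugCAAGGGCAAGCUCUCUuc
miR-381-3p: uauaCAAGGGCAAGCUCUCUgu
miR-543-3p: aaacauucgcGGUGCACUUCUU
miR-495-3p: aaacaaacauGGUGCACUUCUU
miR-379-3p: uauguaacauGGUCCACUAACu
miR-411-3p: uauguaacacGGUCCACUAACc
Counted from 1 at the 5′ end, miR-300-3p and miR-381-3p are identical at 19 of 22 positions and differ by G4A, U21G and C22U. The first of these falls in the seed. miR-543-3p and miR-495-3p are identical at 18 of 22 positions and differ by U6A, U7A, G9A and C10U, so their 5′ parts differ and their 3′ parts are the same. miR-379-3p and miR-411-3p are identical at 20 of 22 positions and differ by U10C and U22C, outside the seed. How reads that could belong to either name of a pair were counted is not given in the sources used here.

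A run of GGU followed by any 2 bases and AC (GGUNNAC, read on the mature strand only) occurred in 20 of the 63 members with a sequence (31.7%), against 35 of all 1679 mature mouse microRNAs in the RefSeq table (2.08%). The 35 include the 20 members. It stands at bases 2 to 8 of miR-379-5p and further along in miR-323-3p, miR-409-3p and miR-543-3p.

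Members together made up 4.14% ± 0.0696 (SD, n = 4) of all counts in Empty_Vector, with a range of 4.06% to 4.23%. The share was 3.83% ± 0.0508 in shRNA, ranging from 3.77% to 3.89%, and 3.15% ± 0.118 in shRNA_2bp, ranging from 3.05% to 3.32%. In shRNA_5bp it was 4.58% ± 0.187, ranging from 4.41% to 4.79%. No hairpin group overlapped Empty_Vector, with 2 groups below it and shRNA_5bp above it. The share depends on the rest of the library, and miR-128-3p, the leading neuronal microRNA, was the single largest entry. With miR-128-3p taken out of the total, the cluster share was 6.76% in Empty_Vector, 5.72% in shRNA, 4.18% in shRNA_2bp and 6.19% in shRNA_5bp, so that shRNA_5bp then stood below Empty_Vector. In bulk libraries such as these, fewer cells that make a microRNA and less of it per cell cannot be told apart.

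**Figure D1:**
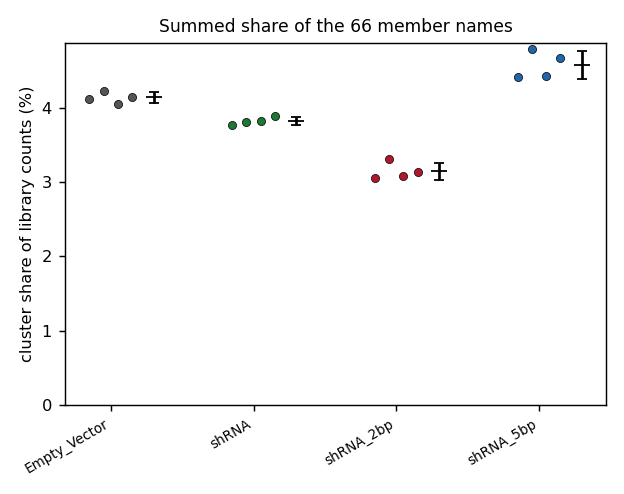
Share of each library's counts held by the 66 cluster names (y axis, percent, from 0), by group, with 1 point per library and the mean and SD of 4 libraries beside them. The shRNA_2bp libraries are lowest, at 3.05% to 3.32%, and the shRNA_5bp libraries highest, at 4.41% to 4.79%.

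A few members held most of the counts. The 8 leading names of each group held 76.2% of the cluster's counts in Empty_Vector, 76.9% in shRNA, 81.7% in shRNA_2bp and 77.0% in shRNA_5bp. miR-543-3p led in Empty_Vector with 15.0% of the cluster's counts and in shRNA with 18.3%. miR-381-3p led in shRNA_2bp with 34.0% and in shRNA_5bp with 16.9%. At the other end, 15 names had too few counts to be tested, between 0 and 214 counts over all 16 libraries. Both arms of miR-654 were at 0 in every library, and 3 counts, the most that a count of 0 allows, corresponded to 0.269 to 3.61 CPM on unscaled totals. miR-299a and miR-299b carried the same count for the same arm in every library and cannot be separated, so the 51 tested names hold 49 distinct sets of values.

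With the unmutated shRNA, 24 of the 51 tested members fell and 2 rose against Empty_Vector at an adjusted p below 0.05 by edgeR's quasi-likelihood test with Benjamini-Hochberg adjustment over all 483 tested microRNAs. Among all tested microRNAs, 15.1% fell and 19.7% rose. The median log2 fold change of members was -0.34, against 0.04 for all tested microRNAs, and none of the 51 changed by over 2-fold, where 1.24% of all tested microRNAs fell and 2.69% rose by over 2-fold. Leaving out 1 library at a time gave 19 to 27 members that fell. Without the miR-299b names, which repeat miR-299a, 23 fell and 2 rose. In the same libraries the neuron-enriched sum was 387368 to 437409 CPM, below every Empty_Vector library, but that sum is mostly miR-128-3p, with a mean of 427182 CPM in Empty_Vector and 331259 CPM with shRNA. The other 6 neuron-enriched microRNAs summed to 83399 to 86342 CPM in Empty_Vector and 80582 to 87291 CPM with shRNA, and of all 7, 2 fell and 2 rose. The microglial sum was 77.8 to 107 CPM, with 3 of 6 markers at 0, above every Empty_Vector library. In every group that sum was mostly miR-146a-5p, with a mean of 52.6 CPM in Empty_Vector and 73.8 CPM with shRNA. The markers miR-142a-3p and miR-223-3p were at 0 in every group. The astroglial sum, at 2056 to 2248 CPM, and that of 9 vessel and fibroblast markers, at 683 to 784 CPM against 724 to 822 CPM, overlapped Empty_Vector. In every group the vessel and fibroblast sum was mostly miR-126a-3p, with a mean of 735 CPM in Empty_Vector and 675 CPM with shRNA. The part of these markers in the falls of members was not tested.

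Among abundant members, miR-379-5p, whose hairpin opens the cluster, was at 4101, 4406, 4400 and 4134 CPM in the 4 Empty_Vector libraries and at 2703, 2634, 2898 and 2675 CPM with shRNA. All shRNA libraries lay below all Empty_Vector libraries, and the log2 fold change was -0.64 ± 0.055 (SE; edgeR adjusted p = 1.87e-10). miR-323-3p was at 3463, 3380, 3256 and 3080 CPM in Empty_Vector and at 2146, 2405, 2373 and 2414 CPM with shRNA, a fall of 0.50 ± 0.055 on the log2 scale (edgeR adjusted p = 2.77e-08). Those groups did not overlap either. miR-411-5p, a neighbour of miR-379, fell from 1875 to 2104 CPM to a range of 1405 to 1594 CPM, with a log2 fold change of -0.42 ± 0.060 (edgeR adjusted p = 2.17e-06). miR-541-5p fell by 0.41 and miR-382-5p by 0.33 on the log2 scale (edgeR adjusted p = 1.45e-06 and 2.91e-05), again with no overlap of the groups.

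miR-543-3p, the leading member, was not called with shRNA: its libraries held 7370, 7044, 7371 and 6253 CPM, against 6859, 7626, 6063 and 6883 CPM in Empty_Vector. The groups overlapped, and the log2 fold change was 0.03 ± 0.064. With library totals alone it was 0.17 and passed (edgeR adjusted p = 0.0173). miR-495-3p, with which it shares its 3′ sequence, rose from 1626, 1652, 1834 and 1742 CPM to 2207, 2244, 2153 and 2184 CPM. Every shRNA library was above every Empty_Vector library, with a log2 fold change of 0.36 ± 0.069 (edgeR adjusted p = 0.000148). The other member that rose was miR-668-3p, at 99.7 to 123 CPM in Empty_Vector and 167 to 213 CPM with shRNA.

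The largest falls with shRNA were among scarcer names. miR-299a-3p, counted together with miR-299b-3p, was at 12.2, 15.8, 14.0 and 14.8 CPM in Empty_Vector and at 8.21, 7.81, 9.64 and 8.43 CPM with shRNA, a log2 fold change of -0.75 ± 0.169 (edgeR adjusted p = 0.000815). miR-496a-3p went from 33.5 to 45.5 CPM down to 21.0 to 25.3 CPM, a fall of 0.68 on the log2 scale (edgeR adjusted p = 0.00113). Neither pair of groups overlapped.

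Smaller differences with shRNA depended on which libraries were fitted. miR-381-3p had a log2 fold change of -0.18 ± 0.052 (edgeR adjusted p = 0.00819). Its edgeR adjusted p ran from 0.00184 to 0.3 as libraries were left out and missed the threshold in 6 of 16 such fits. These were the fits without Empty_Vector replicate 2 or 3, shRNA replicate 1, 2 or 3, or shRNA_5bp replicate 4. In them the median of all tested microRNAs was 0.08 to 0.11, against 0.04 with all libraries. For miR-409-3p, at -0.25 ± 0.079 (edgeR adjusted p = 0.0178), the range was 0.00283 to 0.135, and the call was lost without Empty_Vector replicate 2 or 3 or shRNA replicate 2, 3 or 4. miR-300-3p, at -0.26 ± 0.060 (edgeR adjusted p = 0.00106), lost its call without Empty_Vector replicate 2 (adjusted p = 0.0566) or shRNA replicate 2 (adjusted p = 0.0505). All 3 values came closer to 0 when libraries were scaled by their totals alone, at -0.03, -0.11 and -0.11.

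With the 2-mutation hairpin, falls were deeper. Of the 51 tested members, 32 fell and 4 rose against Empty_Vector, where 32.3% of all tested microRNAs fell and 33.3% rose (edgeR adjusted p below 0.05). Of the 51 members, 20 fell by over 2-fold and none rose by as much, where 15.7% of all tested microRNAs fell and 13.3% rose by over 2-fold. The median log2 fold change of members was -0.85, against 0.01 for all tested microRNAs. Leaving out single libraries gave 31 to 34 members that fell. In the same libraries the astroglial sum was 3570 to 3898 CPM, against 1841 to 2060 CPM in Empty_Vector, with no astroglial marker at 0. Most of it was miR-21a-5p and miR-22-3p, with means of 1790 and 1717 CPM, against 738 and 1122 CPM in Empty_Vector. The vessel and fibroblast sum was 1204 to 1452 CPM, against 724 to 822 CPM in Empty_Vector, where 1 of its 9 markers was at 0. The microglial sum was 88.7 to 105 CPM. Of the 7 neuron-enriched microRNAs, 3 fell and 3 rose. miR-128-3p had a mean of 240802 CPM, and the other 6 summed to 106057 to 109558 CPM, above every Empty_Vector library. The sum of those 6 was mostly miR-9-5p, with a mean of 71162 CPM in Empty_Vector and 95347 CPM with shRNA_2bp. The next largest, miR-218-5p, was lower with shRNA_2bp, at a mean of 9106 CPM against 10472 CPM. The part of all these markers in the falls of the cluster was not tested.

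**Figure D2:**
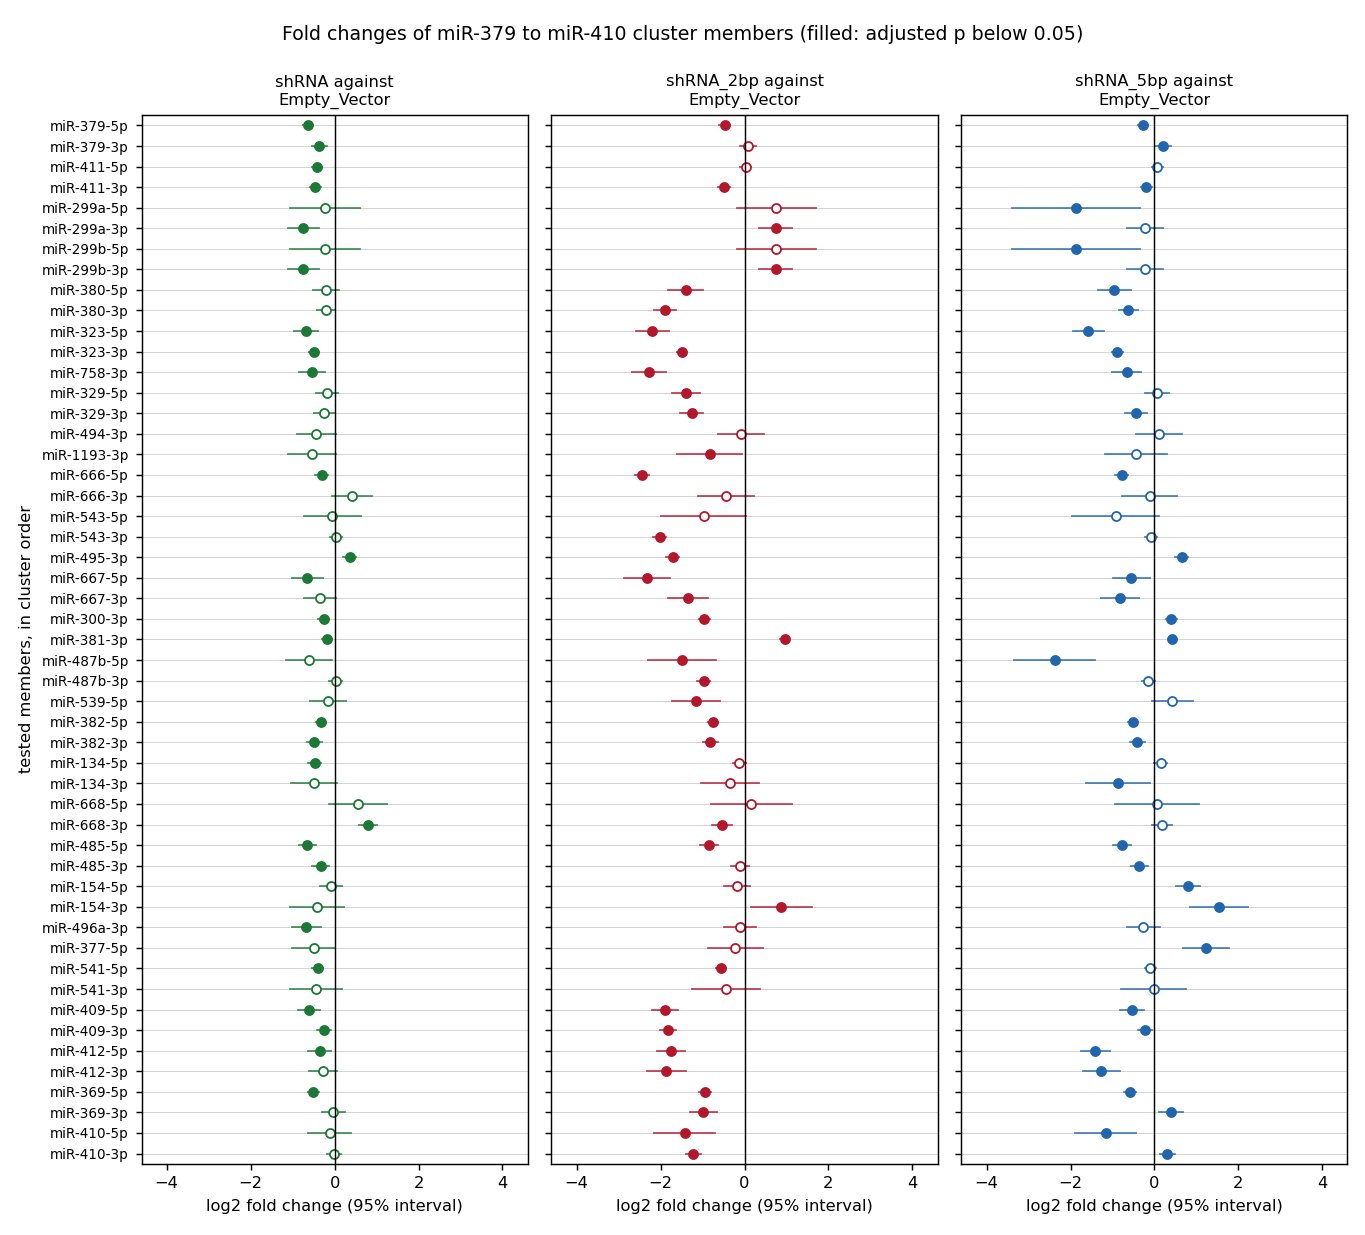
Log2 fold change against Empty_Vector (x axis) of each tested cluster member, ordered along the chromosome (y axis), for shRNA, shRNA_2bp and shRNA_5bp, with lines for 95% intervals and filled points for members past the adjusted p threshold of 0.05. Most points lie left of 0, with medians of -0.34, -0.85 and -0.26.

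miR-543-3p was the abundant member with the largest fall. Its 4 shRNA_2bp libraries held 1712, 1674, 1739 and 1621 CPM, against 6063 to 7626 CPM in Empty_Vector. The log2 fold change was -2.02 ± 0.067, a 4.07-fold fall (edgeR adjusted p = 8.71e-21). miR-409-3p was at 1262, 1320, 1414 and 1273 CPM with shRNA_2bp, against 4539, 4974, 4568 and 4553 CPM, a 3.54-fold fall with a log2 fold change of -1.82 ± 0.083 (edgeR adjusted p = 4.37e-15). miR-323-3p was at 1142 to 1197 CPM against 3080 to 3463 CPM, a 2.82-fold fall (edgeR adjusted p = 2.29e-19). In all 3, the lowest Empty_Vector library stood more than 2-fold above the highest shRNA_2bp library.

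miR-666-5p fell most of all. It was at 691, 768, 720 and 686 CPM in Empty_Vector and at 128, 139, 146 and 114 CPM with shRNA_2bp, a 5.42-fold fall with a log2 fold change of -2.44 ± 0.080 (edgeR adjusted p = 8.71e-21). miR-667-5p fell from 21.0 to 26.1 CPM to 2.40 to 7.37 CPM, or 5.02-fold (edgeR adjusted p = 3.21e-09). miR-758-3p, made from the hairpin next to miR-323, went from 73.9, 97.3, 99.3 and 93.6 CPM to 14.4, 26.7, 21.3 and 9.004 CPM, or 4.87-fold lower (edgeR adjusted p = 9.7e-12). These 3 members are scarcer than miR-543-3p, and their groups did not overlap either. In the shRNA_2bp libraries miR-667-5p rested on 4 to 11 counts and miR-758-3p on 11 to 59 counts.

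miR-381-3p went the other way and became the most abundant member. It was at 5248, 5483, 5074 and 5658 CPM in Empty_Vector and at 10310, 10807, 10166 and 10288 CPM with shRNA_2bp. The log2 fold change was 0.95 ± 0.053, or 1.94-fold (edgeR adjusted p = 1.62e-15), and between 0.89 and 1.00 as single libraries were left out. miR-299a-3p, with miR-299b-3p, rose to 22.2, 22.2, 26.3 and 26.2 CPM, a log2 fold change of 0.74 ± 0.178 (edgeR adjusted p = 0.000628). The remaining member that rose was miR-154-3p, which was too scarce to be described further.

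Other abundant members moved less with shRNA_2bp. miR-379-5p was at 2939 to 3199 CPM, a fall of 0.48 on the log2 scale (edgeR adjusted p = 1.16e-08), miR-541-5p at 2830 to 2937 CPM, and miR-382-5p at 2414 to 2487 CPM, a fall of 0.75 (edgeR adjusted p = 2.29e-12). For each, all 4 libraries lay below all Empty_Vector libraries. miR-411-5p was at 1869, 2135, 2143 and 2047 CPM, overlapping the 1875 to 2104 CPM of Empty_Vector, with a log2 fold change of 0.03 ± 0.060 (edgeR adjusted p = 0.691).

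**Figure D3:**
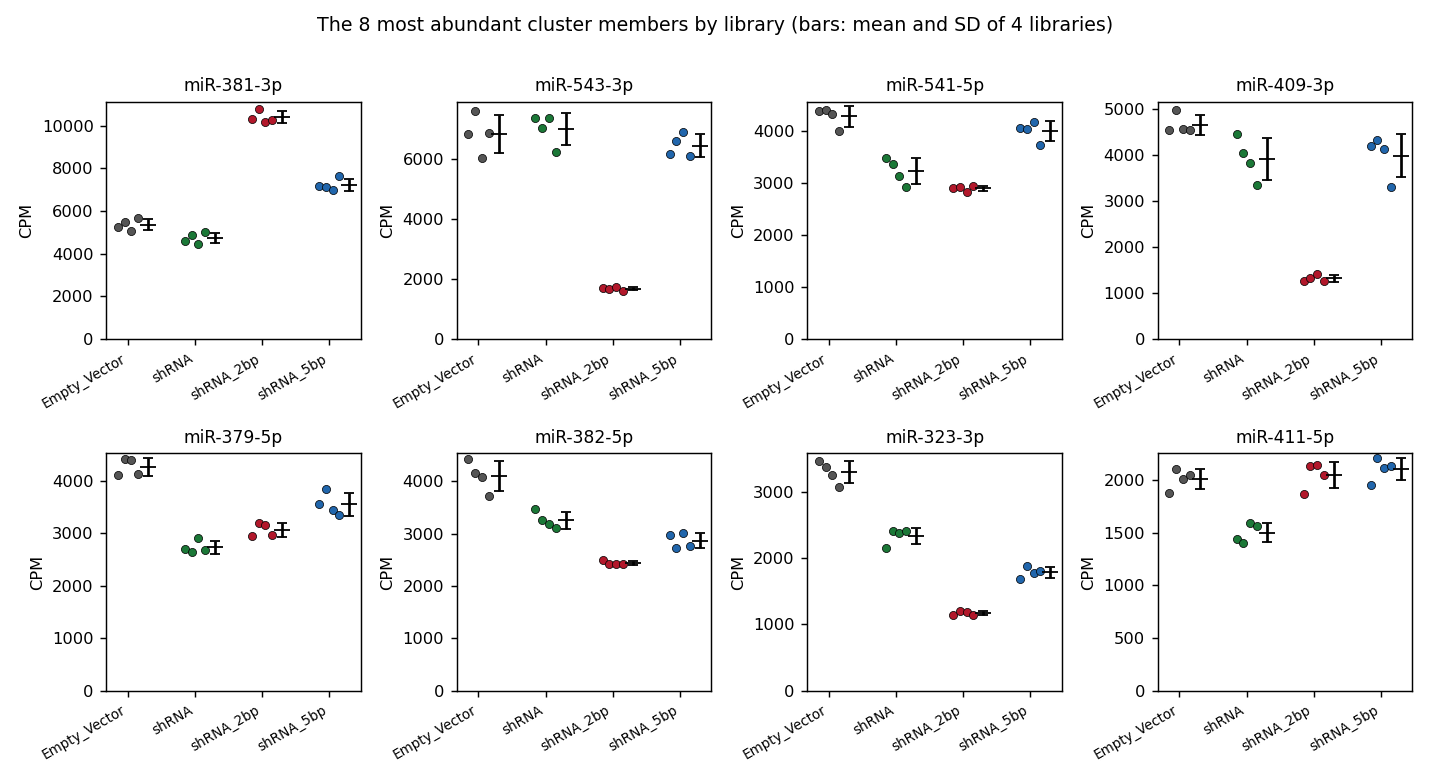
Scaled CPM (y axis, from 0) of the 8 most abundant members in each of the 16 libraries, by group, with the mean and SD of 4 libraries beside the points. miR-381-3p stands at 10166 to 10807 CPM with shRNA_2bp, where miR-543-3p is at 1621 to 1739 CPM and miR-409-3p at 1262 to 1414 CPM.

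With the 5-mutation hairpin, 25 of the 51 tested members fell and 9 rose against Empty_Vector, where 26.7% of all tested microRNAs fell and 31.5% rose (edgeR adjusted p below 0.05). The median log2 fold change of members was -0.26, against 0.06 for all tested microRNAs. Of the 51, 7 fell and 2 rose by over 2-fold, as did 7.04% and 12.6% of all tested microRNAs. Without the miR-299b names, which repeat miR-299a, 6 fell by over 2-fold. Among the 39 members of at least 10 CPM, 3 fell and none rose by as much, so most of these larger changes were in scarcer names. The balance depended on the scaling. With library totals alone, 16 members fell and 15 rose, and their median was -0.02. Of all 483 tested microRNAs, 81 then fell and 216 rose, with a median of 0.30. The astroglial sum was 2078 to 2395 CPM, above every Empty_Vector library, and the vessel and fibroblast sum 1138 to 1369 CPM. The microglial sum was 65.7 to 86.3 CPM. Of the 7 neuron-enriched microRNAs, 2 fell and 4 rose. miR-128-3p had a mean of 243554 CPM, and the other 6 summed to 91153 to 94436 CPM, above every Empty_Vector library. The sum of those 6 was mostly miR-9-5p, with a mean of 71162 CPM in Empty_Vector and 81992 CPM with shRNA_5bp. The next largest, miR-218-5p, was lower with shRNA_5bp, at a mean of 7416 CPM against 10472 CPM. The part of all these markers in the values of members was not tested.

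miR-323-3p fell here too, to 1685, 1876, 1770 and 1812 CPM from 3080 to 3463 CPM, a log2 fold change of -0.88 ± 0.056 (edgeR adjusted p = 1.05e-13). miR-382-5p was at 2972, 2717, 3016 and 2762 CPM, below the 3722 to 4430 CPM of Empty_Vector, and fell by 0.52 on the log2 scale (edgeR adjusted p = 6.5e-09). miR-666-5p was at 382.2 to 442 CPM, a 1.72-fold fall (edgeR adjusted p = 3.11e-10). None of these groups overlapped. The largest falls among members of at least 10 CPM were those of miR-323-5p, at 14.2 to 17.0 CPM against 41.0 to 54.7 CPM, and of both arms of miR-412. miR-412-5p was at 36.6, 28.2, 36.8 and 50.5 CPM, against 90.4, 115, 94.96 and 96.5 CPM, a log2 fold change of -1.40 ± 0.156 (edgeR adjusted p = 7.07e-09). miR-412-3p was at 9.73 to 21.3 CPM against 31.1 to 34.7 CPM, a log2 fold change of -1.27 ± 0.203 (edgeR adjusted p = 4.06e-06). miR-380-5p fell by 0.95 on the log2 scale (edgeR adjusted p = 5.29e-05).

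Rises with shRNA_5bp included members that had fallen with shRNA_2bp. miR-495-3p was at 2579, 3200, 2354 and 2592 CPM, above every Empty_Vector library, with a log2 fold change of 0.65 ± 0.070 (edgeR adjusted p = 4.72e-09). miR-300-3p was at 2010, 2029, 1842 and 2107 CPM, against 1589, 1623, 1390 and 1440 CPM, a log2 fold change of 0.40 ± 0.061 (edgeR adjusted p = 1.58e-06). miR-381-3p was at 7185, 7122, 6985 and 7640 CPM, a log2 fold change of 0.43 ± 0.052 (edgeR adjusted p = 3.98e-08). All of their libraries lay above those of Empty_Vector. miR-154-5p rose most among members of at least 10 CPM, from 38.9 to 44.6 CPM to 62.0 to 79.1 CPM, or 1.75-fold (edgeR adjusted p = 6.41e-06).

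Some of the smaller rises depended on which libraries were fitted. miR-410-3p was at 363, 383, 335 and 368 CPM, against 283, 309, 270 and 310 CPM, a log2 fold change of 0.31 ± 0.079 (edgeR adjusted p = 0.00142). That call was lost without Empty_Vector replicate 3 (edgeR adjusted p = 0.071) or shRNA_5bp replicate 4 (edgeR adjusted p = 0.0515). In those fits the median of all tested microRNAs was -0.04, against 0.06 with all libraries. miR-369-3p, at 73.7 to 124 CPM against 68.8 to 84.6 CPM, overlapped Empty_Vector, and its adjusted p ran from 0.00249 to 0.397 as libraries were left out. For miR-379-3p, at 190 to 233 CPM against 177 to 188 CPM, that range was 0.0216 to 0.46, and 11 of 16 such fits missed the threshold.

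The leading member miR-543-3p was at 6178, 6629, 6927 and 6116 CPM with shRNA_5bp and was not called, with a log2 fold change of -0.09 ± 0.064. miR-541-5p was at 3730 to 4177 CPM, a log2 fold change of -0.10 ± 0.057. Both groups overlapped Empty_Vector. With library totals alone, both values had the opposite sign and passed the threshold, at 0.16 and 0.14 (edgeR adjusted p = 0.021 and 0.0155).

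The 3 comparisons share the 4 Empty_Vector libraries, so their calls are not independent. Opposite calls in different comparisons were made for 9 members, namely miR-379-3p, miR-299a-3p, miR-299b-3p, miR-495-3p, miR-300-3p, miR-381-3p, miR-668-3p, miR-369-3p and miR-410-3p. Of these, miR-299a-3p and miR-299b-3p hold the same counts. All are 3p arms, as are 28 of the 51 tested members. How many of all tested microRNAs had opposite calls was not counted, so the number is not set against a background. Some of these calls were lost when each of the 16 libraries was left out in turn. The fall with shRNA no longer passed in 6 of the 16 fits for miR-381-3p and in 2 for miR-300-3p, whose fall with shRNA_2bp passed in all 16. The rise with shRNA_5bp no longer passed in 11 fits for miR-379-3p, in 6 for miR-369-3p and in 2 for miR-410-3p.

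Direct tests between hairpins gave the size of these differences. Between shRNA_2bp and shRNA, 28 members were lower and 12 higher with shRNA_2bp, where 33.5% of all tested microRNAs were lower and 31.1% higher, and the median of members was -0.70. That median was -0.45 without Empty_Vector replicate 3 or shRNA replicate 4, -0.46 without shRNA replicate 1 and -0.38 by DESeq2, run without the low-count filter over 64 members. Without shRNA_2bp replicate 3, the number of higher members was 7. miR-543-3p was lower by 2.06 ± 0.067 on the log2 scale (log2 fold change -2.06; edgeR adjusted p = 5.64e-21), miR-495-3p had a log2 fold change of -2.07 ± 0.074 and miR-666-5p one of -2.13 ± 0.079. Higher with shRNA_2bp were miR-299a-3p, by 1.49 ± 0.184, and miR-381-3p, by 1.13 ± 0.053 on the log2 scale (edgeR adjusted p = 4.12e-08 and 2.32e-17). No library of one group lay within the range of the other for any of these 5.

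Between shRNA_5bp and shRNA, 12 members were lower and 17 higher with shRNA_5bp, where 24.6% of all tested microRNAs were lower and 28.4% higher, and the median of members was 0.02. These counts were not stable. Without Empty_Vector replicate 2 or 3, 19 were lower and 10 higher, and without shRNA replicate 3, 20 were lower and 9 higher. The number higher was 10 without shRNA replicate 1 or 2 and 11 without shRNA_5bp replicate 4. In all of these fits the tested microRNAs as a whole moved too. Their median was -0.16 to -0.15, against -0.002 with all libraries, with 90 to 97 higher and 149 to 160 lower of at most 498. Larger single differences were those of miR-154-5p, with a log2 fold change of 0.89 ± 0.132, miR-300-3p, with 0.66 ± 0.061, and miR-134-5p, with 0.63 ± 0.070 (edgeR adjusted p = 1.58e-06, 2.71e-10 and 1.24e-08). miR-412-5p was lower with shRNA_5bp, with a log2 fold change of -1.05 ± 0.157 (edgeR adjusted p = 1.88e-06). miR-543-3p did not pass, at -0.12 with a 95% interval of -0.26 to 0.02.

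Between shRNA_5bp and shRNA_2bp, 6 members were lower and 27 higher with shRNA_5bp, where 22.8% of all tested microRNAs were lower and 36.9% higher, and the median of members was 0.42, against 0.16 for all tested microRNAs. Without Empty_Vector replicate 2 or 3, shRNA replicate 1, 2 or 3, or shRNA_5bp replicate 4, the median of all tested microRNAs was 0.01 to 0.04, with 140 to 148 higher and 122 to 138 lower of at most 498, while 23 members were higher and 6 lower. miR-495-3p was higher by 2.36 ± 0.075 on the log2 scale, miR-543-3p by 1.94 ± 0.067 and miR-667-5p by 1.77 ± 0.289 (edgeR adjusted p = 4.77e-21, 3.12e-20 and 5.74e-06). miR-381-3p was lower with shRNA_5bp, with a log2 fold change of -0.52 ± 0.053, and so was miR-299a-3p, with -0.97 ± 0.211 (edgeR adjusted p = 1.13e-09 and 0.000265). In all 5 the groups stood apart.

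The pairs of similar sequence did not move together in every group. With shRNA_2bp, miR-381-3p rose while miR-300-3p, which differs from it at 3 positions, fell to 754, 819, 772 and 757 CPM, a log2 fold change of -0.96 ± 0.062 (edgeR adjusted p = 5.84e-14). The ratio of miR-381-3p to miR-300-3p counts was 3.30, 3.38, 3.65 and 3.93 in the Empty_Vector libraries and 13.7, 13.2, 13.2 and 13.6 with shRNA_2bp. With shRNA it was 3.45 to 4.00, and with shRNA_5bp, where both members rose, 3.51 to 3.79. Only the shRNA_2bp libraries stood outside the range of Empty_Vector and the other hairpins, a range of 3.30 to 4.00.

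**Figure D4:**
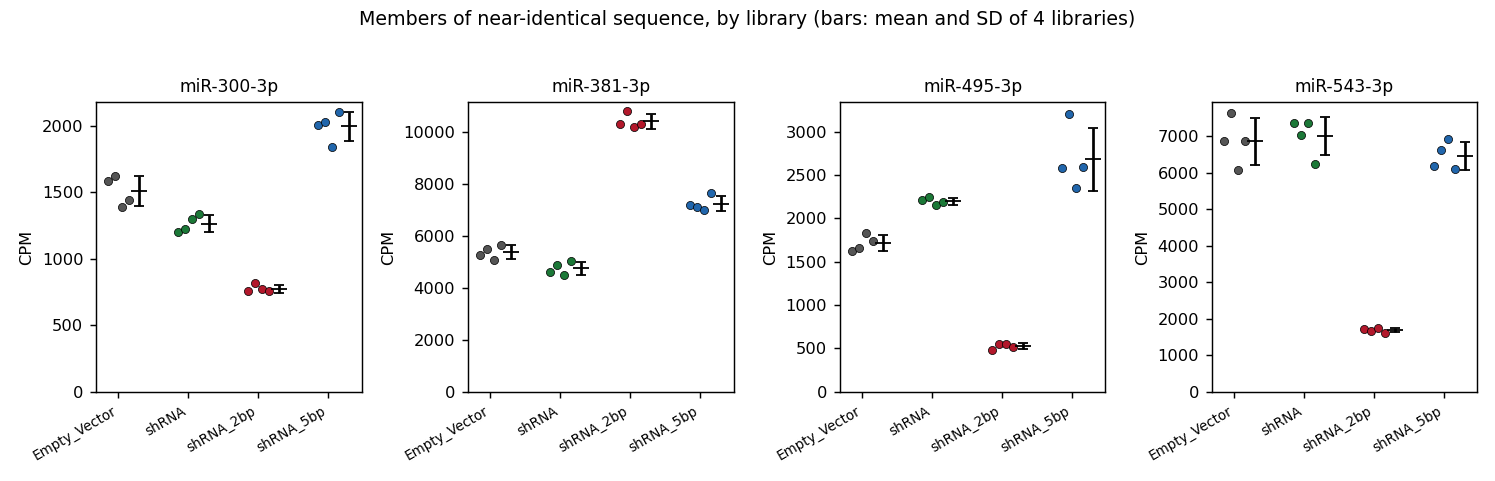
Scaled CPM (y axis, from 0) of miR-300-3p, miR-381-3p, miR-495-3p and miR-543-3p in each library, by group, with the mean and SD of 4 libraries. With shRNA_2bp, miR-300-3p is lowest, at 754 to 819 CPM, while miR-381-3p is highest, at 10166 to 10807 CPM, and miR-495-3p and miR-543-3p are both lowest.

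miR-495-3p and miR-543-3p both fell with shRNA_2bp. miR-495-3p was then at 484, 554, 545 and 511 CPM, a log2 fold change of -1.71 ± 0.074 (edgeR adjusted p = 4.03e-18). The ratio of miR-543-3p to miR-495-3p counts was 4.02 ± 0.550 (SD, n = 4) in Empty_Vector, 3.19 ± 0.249 with shRNA, 3.23 ± 0.218 with shRNA_2bp and 2.44 ± 0.364 with shRNA_5bp. Of the hairpin groups, shRNA_5bp alone did not overlap Empty_Vector, at 2.07 to 2.94 against 3.31 to 4.62. For miR-379-3p and miR-411-3p, which share a seed, the ratio of counts was 0.246 ± 0.0201 (SD, n = 4) in Empty_Vector, 0.262 ± 0.0141 with shRNA, 0.364 ± 0.0381 with shRNA_2bp and 0.321 ± 0.0193 with shRNA_5bp.

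Both arms of a hairpin start from the same precursor, and usually 1 of them dominates. In Empty_Vector, 32 of the 33 hairpins had counts in every library. The 5p arm dominated in 13 and the 3p arm in 19, and the dominant arm held over 90% of the hairpin's counts in 19 of the 32. Both miR-299a and miR-299b, which hold the same counts, are included among the hairpins with a dominant 3p arm. The 5p arm held 55.7% ± 1.3 (SD, n = 4) of the miR-485 counts in Empty_Vector, the most even split among the 32 hairpins, while miR-541 was almost wholly 5p and miR-381 almost wholly 3p.

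Both miR-299a and miR-299b, which hold the same counts, are among the 21 member hairpins with both arms tested. The log2 ratio of 5p to 3p counts was compared for these 21. Its groups did not overlap between Empty_Vector and shRNA for 5 of 21 hairpins (23.8%, against 21.8% of all 119 hairpins), for 7 with shRNA_2bp (33.3%, against 36.1%) and for 11 with shRNA_5bp (52.4%, against 40.3%). With 4 libraries against 4, the two-sided exact permutation test cannot go below p = 0.0286, which these hairpins reached, and after adjustment (0.0872) none passed. With at least 10 counts in both arms of every library, 9 member hairpins were left, of which 3 (33.3%), 5 (55.6%) and 6 (66.7%) did not overlap with shRNA, shRNA_2bp and shRNA_5bp, against 31.0%, 48.3% and 51.7% of 58 hairpins. Without that count limit, the shift was toward the 3p arm in 5 of 5 hairpins with shRNA, 5 of 7 with shRNA_2bp and 9 of 11 with shRNA_5bp. Over all hairpins it was 15 of 26, 25 of 43 and 28 of 48. Among hairpins that met the limit, miR-369, miR-379 and miR-485 shifted toward 3p with shRNA. With shRNA_2bp, miR-323, miR-379 and miR-485 shifted toward 3p, and miR-380 and miR-411 toward 5p. With shRNA_5bp, miR-323, miR-369, miR-379 and miR-485 shifted toward 3p, and miR-329 and miR-411 toward 5p. The other member shifts, all toward 3p, were in hairpins below the limit.

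miR-485 had a log2 ratio of 0.45, 0.30, 0.28 and 0.30 in Empty_Vector and of -0.36, -0.52, -0.39 and -0.39 with shRNA_2bp, so its leading arm was 5p in every Empty_Vector library and 3p in every shRNA_2bp library. The ratio of miR-379 was 4.45 to 4.64 in Empty_Vector and lower in all hairpin libraries, at 4.18 to 4.42 with shRNA, 3.81 to 4.23 with shRNA_2bp and 4.04 to 4.22 with shRNA_5bp. miR-411, its neighbour, moved the other way with shRNA_2bp, from 1.36 to 1.51 up to 1.92 to 2.03. miR-369 was at 4.01 to 4.35 in Empty_Vector, 3.59 to 3.76 with shRNA and 2.70 to 3.59 with shRNA_5bp, while shRNA_2bp, at 4.04 to 4.39, overlapped Empty_Vector.

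**Figure D5:**
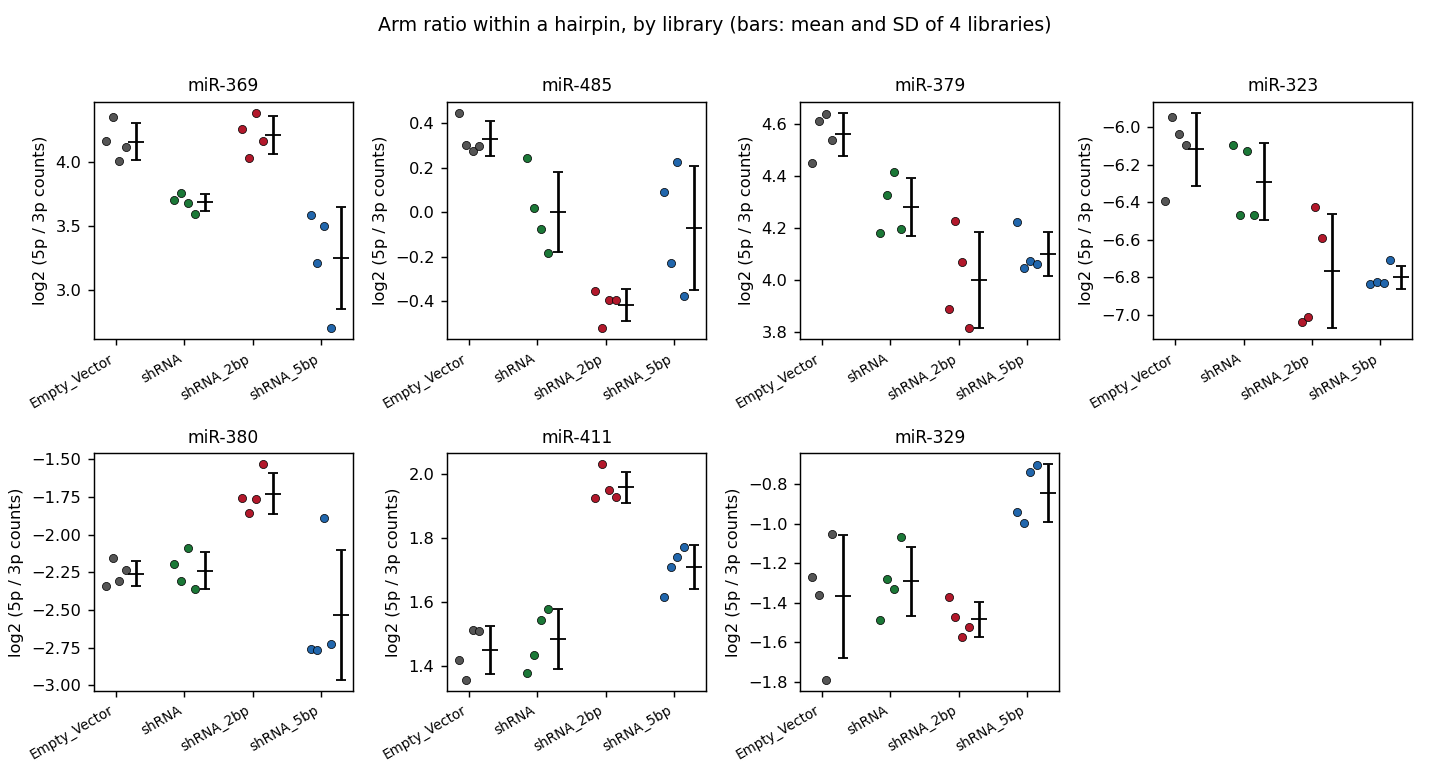
Log2 ratio of 5p to 3p counts (y axis) in each library for the hairpins with the largest changes among those with at least 10 counts in both arms of every library, by group, with the mean and SD of 4 libraries. The miR-485 points lie above 0 in Empty_Vector, at 0.28 to 0.45, and below 0 with shRNA_2bp, at -0.52 to -0.36.

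Of 14 members known from work on neurons, a list drawn up with earlier results of these data known, 9 fell and 1 rose with shRNA, 10 fell and 1 rose with shRNA_2bp, and 5 fell and 4 rose with shRNA_5bp. Their medians were -0.29, -0.80 and -0.09. Of all tested microRNAs, 15.1% fell and 19.7% rose, 32.3% fell and 33.3% rose, and 26.7% fell and 31.5% rose in the same order of comparisons. With shRNA_5bp the shares of the list were 35.7% fallen and 28.6% risen. miR-134-5p was at 520, 504, 480 and 501 CPM in Empty_Vector and at 353, 350, 355 and 386 CPM with shRNA, a log2 fold change of -0.48 ± 0.068 (edgeR adjusted p = 2.4e-06). It was not called with shRNA_2bp, at 426 to 505 CPM, nor with shRNA_5bp, at 493.8 to 609 CPM, where its ranges met that of Empty_Vector. The shRNA_5bp difference, 0.15 ± 0.070 on the log2 scale, passed with library totals alone, at 0.39 (edgeR adjusted p = 0.000101), and with the replicate block (edgeR adjusted p = 0.0422). miR-485-5p fell with each hairpin, from 578 to 718 CPM to 357 to 461 CPM with shRNA, 330 to 392 CPM with shRNA_2bp and 297 to 406 CPM with shRNA_5bp, and no hairpin library reached the Empty_Vector range. miR-329-3p was at 162 to 225 CPM in Empty_Vector and 67.1 to 86.9 CPM with shRNA_2bp, a log2 fold change of -1.26 ± 0.126 (edgeR adjusted p = 7.04e-10). With shRNA it was not called, at -0.26 ± 0.111 (edgeR adjusted p = 0.0761), but passed with a replicate block (adjusted p = 0.0455).

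The 2 parts of the cluster were counted apart, against the same shares of all tested microRNAs (15.1% fell and 19.7% rose with shRNA, 32.3% and 33.3% with shRNA_2bp, 26.7% and 31.5% with shRNA_5bp). Of 29 tested names from hairpins before the annotated start of Mirg, 13 fell and 1 rose with shRNA, 19 fell and 3 rose with shRNA_2bp, and 14 fell and 4 rose with shRNA_5bp, with medians of -0.31, -0.98 and -0.26. Of 22 tested names from within Mirg, 11 fell and 1 rose, 13 fell and 1 rose, and 11 fell and 5 rose, with medians of -0.38, -0.66 and -0.25. Over 47 members with a distinct sequence, Spearman's rho between order along the chromosome and log2 fold change was 0.162, -0.053 and 0.138. Between GC content and log2 fold change it was -0.098, -0.154 and -0.356, against -0.111, -0.266 and -0.187 over 378 other tested microRNAs. These correlations describe microRNAs measured in the same libraries, which are not independent.

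The members were not alone in their region. Of 30 tested names from the other Dlk1-Dio3 microRNAs, 13 fell and 3 rose with shRNA, 18 fell and 3 rose with shRNA_2bp, and 16 fell and 4 rose with shRNA_5bp, with medians of -0.24, -0.74 and -0.36, where 15.1% of all tested microRNAs fell and 19.7% rose with shRNA, 32.3% and 33.3% with shRNA_2bp, and 26.7% and 31.5% with shRNA_5bp. The 6 names of the miR-376 family, whose hairpins lie between those of the cluster but were outside the naming rule, had 0 falls and 1 rise, 1 fall and 3 rises, and 1 fall and 2 rises. The difference between these lists and the members was not tested.

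Seeds of 5 members are shared with tested microRNAs from outside the cluster. miR-410-3p has the seed of miR-344d-3p and miR-344e-3p from chromosome 7. miR-344d-3p rose with shRNA_5bp, from a mean of 592 CPM to 1702 CPM, a log2 fold change of 1.52 ± 0.098 (edgeR adjusted p = 2.13e-11), while miR-410-3p went from 270 to 310 CPM to 335 to 383 CPM. With shRNA_2bp, miR-344d-3p had a log2 fold change of -0.24 and miR-410-3p, at 111 to 142 CPM, one of -1.22 ± 0.084 (edgeR adjusted p = 2.68e-13). miR-412-3p has the seed of miR-1983, which fell with shRNA_2bp by 0.70 and with shRNA_5bp by 0.93 on the log2 scale (edgeR adjusted p = 1.97e-10 and 1.42e-12). miR-377-5p has the seed of miR-672-5p, which rose with all 3 hairpins, with log2 fold changes of 0.92, 0.88 and 0.94. The remaining pairs were miR-329-3p with miR-362-3p and miR-1193-3p with miR-370-5p, itself a Dlk1-Dio3 microRNA.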

How the data were processed

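Small RNA from 16 libraries of transduced mouse forebrain neuron cultures was sequenced. The deposited table holds whole-number read counts of 1978 mature microRNAs, made by the authors. Per the submitters' processing notes, Bowtie 1.1.1, bcl2fastq 2.20.0.422, cutadapt 1.15, edgeR and Trim Galore 0.6.0 were used with build GRCm38.p6, and the role of each is not given in the sources used here, nor how reads matching several microRNAs were counted. Adapters were ligated to total RNA and libraries amplified by PCR, per the labels' protocols, without molecular identifiers being named, so the limits given for a count of 0 cover counting error only.

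Members, lists and tests were chosen with earlier results of these data known. Groups came from the treatment label. All 16 libraries were fitted together in edgeR 4.0.16 (limma 3.58.1, R 4.3.3) by group with a robust quasi-likelihood F test that left 12 residual degrees of freedom. Scaling was by the trimmed mean of M values, and edgeR's filter on low counts removed 1495 names. P-values were adjusted by Benjamini-Hochberg over 483 microRNAs per comparison, and a call needed an adjusted p below 0.05. Standard errors are fold changes divided by the square root of F. Named members were the 8 most abundant, the largest falls and rises of each comparison (at least 10 CPM, groups apart), members with opposite calls, examples from a list of neuronal members and hairpins with the largest arm changes. miR-154-3p, miR-362-3p and other names given with a count of 5 or fewer were added after their values were seen. Arm ratios used a pseudocount of 0.5 and an exact permutation test in Python 3.11.15 with scipy 1.17.1, and figures were drawn with matplotlib 3.10.9. The fit was tested on simulated data. Sequences came from RefSeq on GRCm38.p6, with genes from GENCODE on the same build.

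Replicate numbers occur in every group. Over 360 microRNAs, deviations of same-numbered libraries correlated at 0.111 to 0.281 between shRNA and Empty_Vector. Between shRNA_2bp and shRNA they correlated at 0.166 to 0.198. Every pair of both comparisons was above 0.1, the limit set here, so by that limit the data pair their libraries. No label says what the number marks. The fit by group did not use this pairing. A replicate block was run only as an alternative, and p-values from it are named as such. In the other 4 comparisons the lowest correlation was between -0.0613 and 0.0945. Those of shRNA_2bp with Empty_Vector, at 0.0945 to 0.163, fell just short of the limit, which does not show these libraries to be unpaired. Alternatives were DESeq2 1.42.0, other scalings, no filter on low counts, the replicate block, fits of only the 2 groups compared and leaving out each library.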

Additional observations from a re-analysis of the deposited data

Results flagged for a closer look

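Of 144 sets of 4 libraries checked, 9 had 1 library standing apart from the other 3 by Dixon's test, which chance does in about 1 in 20 sets. Among levels, miR-409-3p was at 4974 CPM in Empty_Vector replicate 2, against 4539 to 4568 CPM in the others. miR-323-3p was at 2146 CPM in shRNA replicate 1, below the 2373 to 2414 CPM of the others, and miR-134-5p at 386 CPM in shRNA replicate 4, above 350 to 355 CPM. miR-382-5p was at 2487 CPM in shRNA_2bp replicate 1, against 2414 to 2425 CPM. miR-485-5p was at 297 CPM in shRNA_5bp replicate 4, below 397 to 406 CPM.

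Among log2 ratios of 5p to 3p counts, miR-485 was at 0.45 in Empty_Vector replicate 1, against 0.28 to 0.30 in the others. With shRNA_5bp, miR-379 was at 4.22 in replicate 1, against 4.04 to 4.07, miR-323 at -6.71 in replicate 4, against -6.84 to -6.83, and miR-380 at -1.89 in replicate 3, against -2.77 to -2.72.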

How the results depend on the processing

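Depth limited the scarce members, since 3 counts stood for up to 3.61 CPM. For the named members, 3106 results under alternatives kept direction and side of the threshold, 147 lost a call, 43 gained one and 48 changed sign. Causes were not tested.

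Scaling by library totals alone moved the median of all tested microRNAs to 0.18, 0.19 and 0.30 for shRNA, shRNA_2bp and shRNA_5bp against Empty_Vector. The members' medians became -0.20, -0.67 and -0.021, 4 members rose with shRNA, and 16 fell and 15 rose with shRNA_5bp. Of all 483 tested microRNAs, 149 rose with shRNA, and 81 fell and 216 rose with shRNA_5bp. Values that changed sign under this scaling were those of miR-154-5p (0.054), miR-369-3p (0.11) and miR-410-3p (0.12) with shRNA, miR-496a-3p (0.067) and miR-134-5p (0.059) with shRNA_2bp, and miR-543-3p (0.16), miR-541-5p (0.14), miR-409-3p (0.015), miR-299a-3p and miR-299b-3p (both 0.028) with shRNA_5bp.

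Without a filter on low counts, the medians were -0.39, -1.05 and -0.60 over 64 members. Over all 1367 microRNAs in that fit they were 0.007, -0.18 and -0.28. Then 5 members rose with shRNA_5bp against Empty_Vector, as did 118 of all 1367. Between shRNA_5bp and shRNA, 21 members were lower and 9 higher with shRNA_5bp, as were 185 and 94 of all 1367. Sign changes were those of miR-411-5p (-0.078) and miR-379-3p (-0.023) with shRNA_2bp, and of miR-411-5p (-0.16), miR-668-3p (-0.052), miR-134-5p (-0.083) and miR-379-3p (-0.028) with shRNA_5bp. In a fit of only the 2 groups compared, miR-411-5p with shRNA_5bp was at -0.017. With relative log expression factors and with DESeq2, the shRNA median was -0.38 and -0.40, and miR-543-3p with shRNA was at -0.00039 and -0.00098.

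With the replicate block, the shRNA median was -0.33, 25 members fell and 2 rose with shRNA, and 29 were lower and 12 higher with shRNA_2bp than with shRNA. In those 2 paired comparisons the block gave miR-329-3p and miR-485-5p (adjusted p = 0.0135, lower with shRNA_2bp than with shRNA) a call and changed no other member's. In the comparisons that did not meet the limit for pairing, 26 fell and 10 rose with shRNA_5bp, and 32 fell and 4 rose with shRNA_2bp, against Empty_Vector. There, miR-299a-3p and miR-299b-3p lost their call between shRNA_5bp and shRNA (adjusted p = 0.0535).

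Leaving out 1 library at a time gave medians of -0.43 to -0.28 with shRNA and -0.98 to -0.78 with shRNA_2bp. Between shRNA_2bp and shRNA, 7 to 12 members were higher, and between shRNA_5bp and shRNA 11 to 20 were lower and 9 to 18 higher. Between shRNA_5bp and shRNA, 107 to 160 of all tested microRNAs were lower and 90 to 139 higher in these fits. Ranges that crossed 0 were -0.014 to 0.14 for miR-543-3p, -0.14 to 0.034 for miR-154-5p, -0.075 to 0.094 for miR-369-3p and -0.068 to 0.074 for miR-410-3p with shRNA, -0.059 to 0.079 for miR-411-5p, -0.033 to 0.15 for miR-379-3p and -0.34 to 0.012 for miR-496a-3p with shRNA_2bp, and -0.029 to 0.11 for miR-411-5p with shRNA_5bp. Requiring 10 counts in both arms left 9 member hairpins, 3 with separated arm ratios for shRNA and 6 for shRNA_5bp. Without miR-128-3p in the total, the cluster share was 6.76%, 5.72%, 4.18% and 6.19% in Empty_Vector, shRNA, shRNA_2bp and shRNA_5bp.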
